A study of Mus musculus with 6 samples.

Results

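The genes described here are those of the proteasome in mouse retina at postnatal day 21: every gene of the array whose symbol begins with Psma, Psmb, Psmc, Psmd, Psme, Psmf or Psmg followed by a digit. Each gene was read from 1 probe set, the brightest by mean log2 signal over the 6 arrays, which gave 49 genes of 18193 with a single symbol on the array. Of these, 45 lay at or above the filter on low signal (a geometric mean of 54.5) and were tested, among 12536 such genes in all. Psme2 is not among the 49, because no probe set carries that symbol alone, and 2 of the 49 are no subunits although the pattern takes them in: Psmc3ip, named for binding a base ATPase and known for meiotic recombination, and Psme3ip1, which binds the activator Psme3.

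The study compared retinas of wildtype C57Bl/6 mice with retinas of mice labelled ERRβ -/-, which lack the orphan nuclear receptor encoded by Esrrb, on a mixed C57Bl/6 x Sv129 background. There were 3 arrays per group, each from total RNA of 2 pooled retinas of mice of mixed sex at day 21. The wildtype mice were not of the mixed background, so genotype and strain cannot be told apart, and the labels do not say whether the pools came from separate animals, so the errors below measure the spread between these samples. Esrrb itself read 2951, 2934 and 1771 in wildtype replicates 1, 2 and 3 and 3435, 4012 and 2397 in the labelled knockout replicates (log2 difference 0.37 ± 0.082, adjusted p = 0.0529), and whether its probes lie in the deleted part is unknown. Its signal was not lower in the group labelled as lacking it, so the term labelled knockout is used throughout.

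The proteasome degrades proteins tagged with ubiquitin. Its core particle is a barrel of stacked rings, with outer rings of α subunits that gate the entrance and inner rings of β subunits, of which Psmb5, Psmb6 and Psmb7 carry the peptidase sites. A regulatory particle caps the barrel: a base with a ring of ATPases that unfolds substrates and a lid that removes the ubiquitin chain. Dedicated chaperones assemble the rings, other caps can replace the regulatory particle, and after interferon the catalytic subunits can be exchanged for Psmb8, Psmb9 and Psmb10. In the retina, rods synthesise and renew large amounts of protein and depend on this degradation route.

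The deposited values are linear signals, and the arrays had been scaled to a trimmed mean near 500 (replicates 1 and 2 of each group) or near 150 (replicate 3 of each group). Log2 values correlated at 0.953 to 0.978 within these sets of arrays and at 0.799 to 0.864 between them. Proteasome signals differed more between the sets than those of most genes: the wildtype array scaled near 150 was lower than those scaled near 500 by a median log2 difference of -2.79 over the 45 genes, against -1.74 over all 12536. Differences are therefore given as log2 fold changes, labelled knockout minus wildtype, each ± its SE (n = 3 per group) in a limma model that takes the set as a block, and also within each set (2 against 2 near 500, and 1 against 1 near 150, which has no error). All p-values are adjusted by Benjamini-Hochberg over 27022 probe sets with a threshold of 0.05, unless called unadjusted. Rod genes, which mark retina, were bright. The 12 measured rod markers summed to 380436 and 382554 in wildtype against 305954 and 340659 in labelled knockout arrays scaled near 500. Near 150 they summed to 52423 against 51563. None of these 12 passed and 1 had a log2 fold change above 0. Their median was -0.19 (-0.24 near 500 and -0.02 near 150), and its part in the proteasome results was not tested.

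Lens transcripts and pigment cell transcripts differed between the same groups, and 1 sign of RNA quality did so by a narrow margin. Their part in the proteasome results was not tested. Of 13 tested lens markers, 11 were higher in labelled knockout and none lower, and the list's summed signal was 2371 and 2935 in wildtype against 44798 and 50974 in labelled knockout arrays scaled near 500, and 5766 against 34590 near 150. Of 9 tested pigment epithelium markers, 4 were higher and none lower, with sums of 43124 and 44680 against 49653 and 56523 near 500 and 2523 against 3274 near 150. Of 7 tested microglia and macrophage markers 1, Lgals3, was higher (1.28% of all genes) and none lower. It read 115 and 102 in wildtype against 479 and 401 in labelled knockout replicates 1 and 2. Log2 fold changes were above 0 for 5 of the 7, and were -0.37 for C1qb and -0.36 for Cd68. The list's sums were 2512 and 2581 against 3016 and 3163 near 500 and 589.8 against 613 near 150. Among lymphocyte markers 1 of 9 on the array reached the filter and did not pass. No marker of these lists read 0 in any array. The ratio of 3′ to 5′ signal of Actb was 1.83, 1.89 and 2.32 in wildtype against 1.82, 1.66 and 1.67 in labelled knockout replicates 1, 2 and 3. It was nearly equal in replicate 1, and the difference between the groups was not tested. The ratio of Gapdh ran from 0.712 to 0.779 without a split between the groups. In whole tissue, fewer cells of a type and less RNA per cell cannot be told apart.

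Most proteasome genes had slightly higher signals in the labelled knockout retinas, and 2 of them passed the test. With a replicate block, the paired form of the fit, neither passed (adjusted p = 0.0713 for Psmc5 and 0.0778 for Psmg1). Psmc5, a base ATPase, and Psmg1, a chaperone of core assembly, rose, with log2 fold changes of 0.48 and 0.52 (1.44-fold for Psmg1). The other 43 of the 45 did not pass, and none fell. Over all genes, 1.28% were called higher and 1.48% lower. Of the 45 log2 fold changes 43 were above 0, against 53.1% of all genes, and their median was 0.17, with a range from -0.11 to 0.52, against a median of 0.02 over all genes. At an unadjusted p under 0.05, 20 of the 45 were higher and none was lower, against 11.5% and 9.84% of all genes. The SE draws on a variance trend with signal, without which 11 of the 45 were higher at an unadjusted p under 0.05 in limma. With the trend, the median SE was 0.0886 for the proteasome genes and 0.135 for all genes. Without Psmc3ip and Psme3ip1 the counts were 2 of 43 higher and 41 of 43 above 0, with a median of 0.19.

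The order of single arrays was counted without a model. In 25 of the 45 genes both labelled knockout arrays exceeded both wildtype arrays near 500 and the labelled knockout array also exceeded the wildtype array near 150, which held for 19.8% of all genes. The opposite order, with labelled knockout below wildtype throughout, was found in none of the 45 and in 15.5% of all genes. When each array was centred on its own median instead, the median of all genes moved from 0.02 to 0.12 and that of the proteasome genes from 0.17 to 0.27, since centring adds the same constant to every gene. Over all probe sets that centring called 58.1% of 284 as higher, against 46.0% of 609 in the fit used here.

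**Figure D1:**
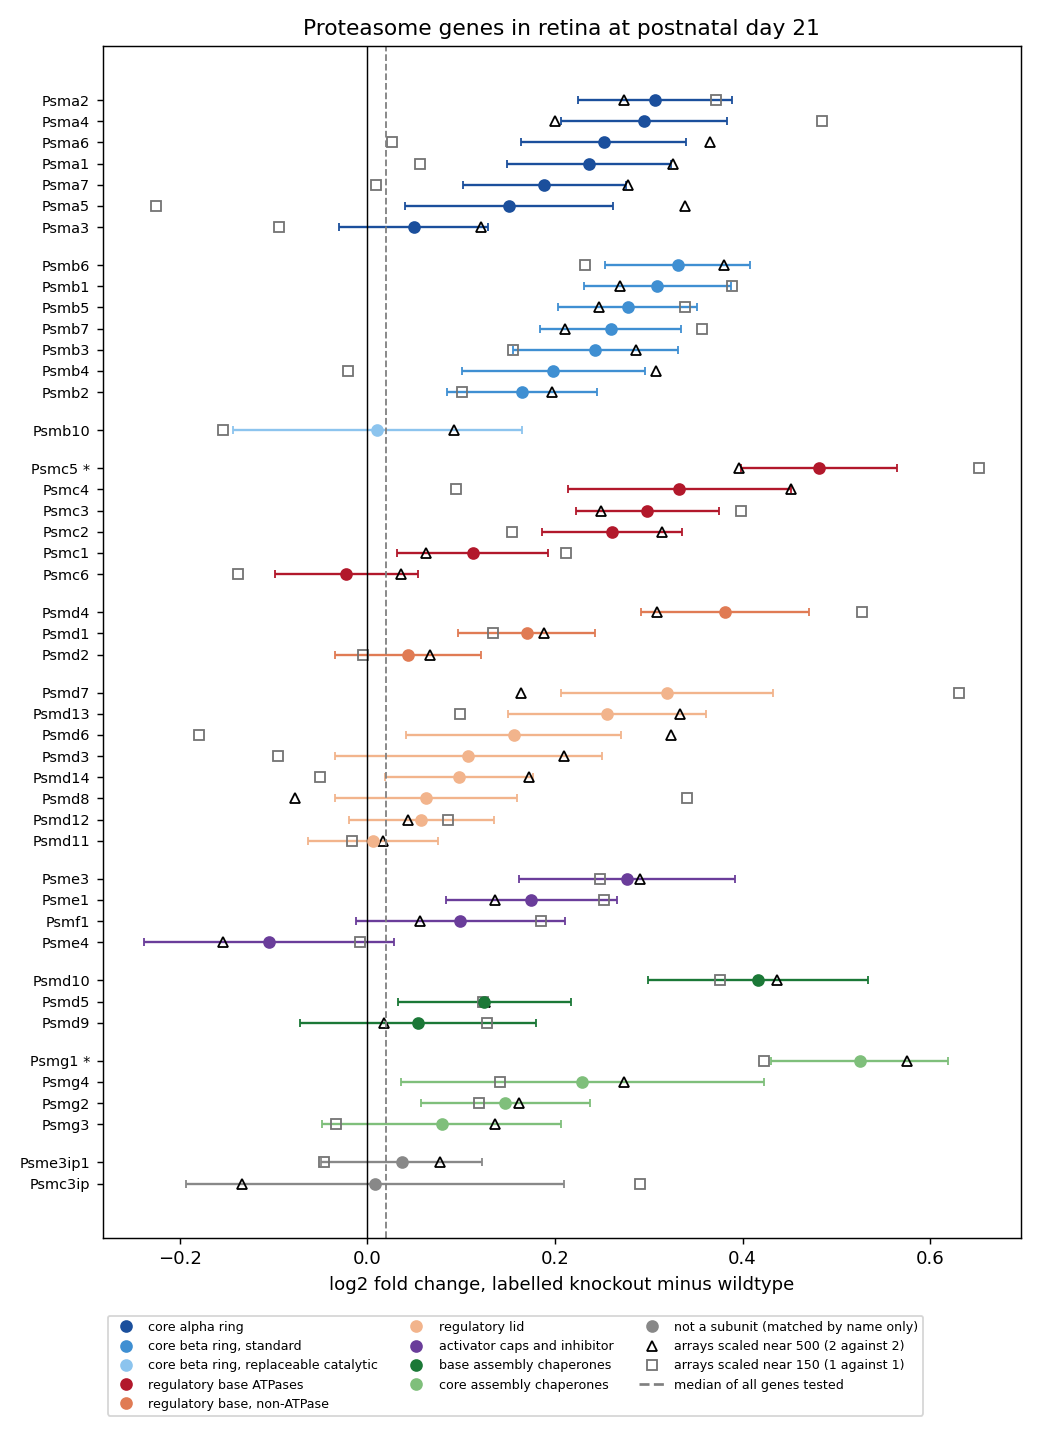
Log2 fold change (labelled knockout minus wildtype, x axis) of the 45 tested proteasome genes, grouped by role. Filled circles with bars are the fit over 3 arrays per group with its SE, open triangles the arrays scaled near 500, open squares those scaled near 150, and the dashed line the median of all genes (0.02). Of the circles 43 lie to the right of 0, and the asterisks mark Psmc5 and Psmg1, which passed the test.

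Psmc5 encodes an ATPase of the base that docks on the α ring. Its signal was 3229.6, 3174 and 409 in wildtype replicates 1, 2 and 3, and 4118, 4314 and 642 in the labelled knockout. Each labelled knockout array lay above the wildtype arrays of its set. The log2 fold change was 0.48 ± 0.083 (adjusted p = 0.0233; 95% interval 0.29 to 0.67), with 0.40 near 500 and 0.65 near 150. With a replicate block in place of the set it did not pass (adjusted p = 0.0713), nor without a variance trend (0.241) or without a block (1.00). Without any 1 of the 4 arrays scaled near 500 it did not pass either, with an adjusted p of 0.0811 to 0.160 and a log2 fold change of 0.49 to 0.53, while without replicate 3 of either group the adjusted p was 0.00724 and 0.00795.

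Psmg1 pairs with Psmg2 to hold the α subunits in place while their ring forms. It read 1129, 1074 and 229 in wildtype against 1579, 1705 and 307 in labelled knockout replicates 1, 2 and 3. Again the groups did not overlap within either set. The log2 fold change was 0.52 ± 0.094 (adjusted p = 0.0263; 95% interval 0.31 to 0.74), with 0.58 near 500 and 0.42 near 150. The replicate block gave an adjusted p of 0.0778, the fit without a variance trend 0.235 and that without a block 1.00, and leaving out 1 of the 4 arrays scaled near 500 gave 0.120 to 0.183. Centring each array on its median gave 0.0563 for Psmg1 and 0.0349 for Psmc5.

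**Figure D2:**
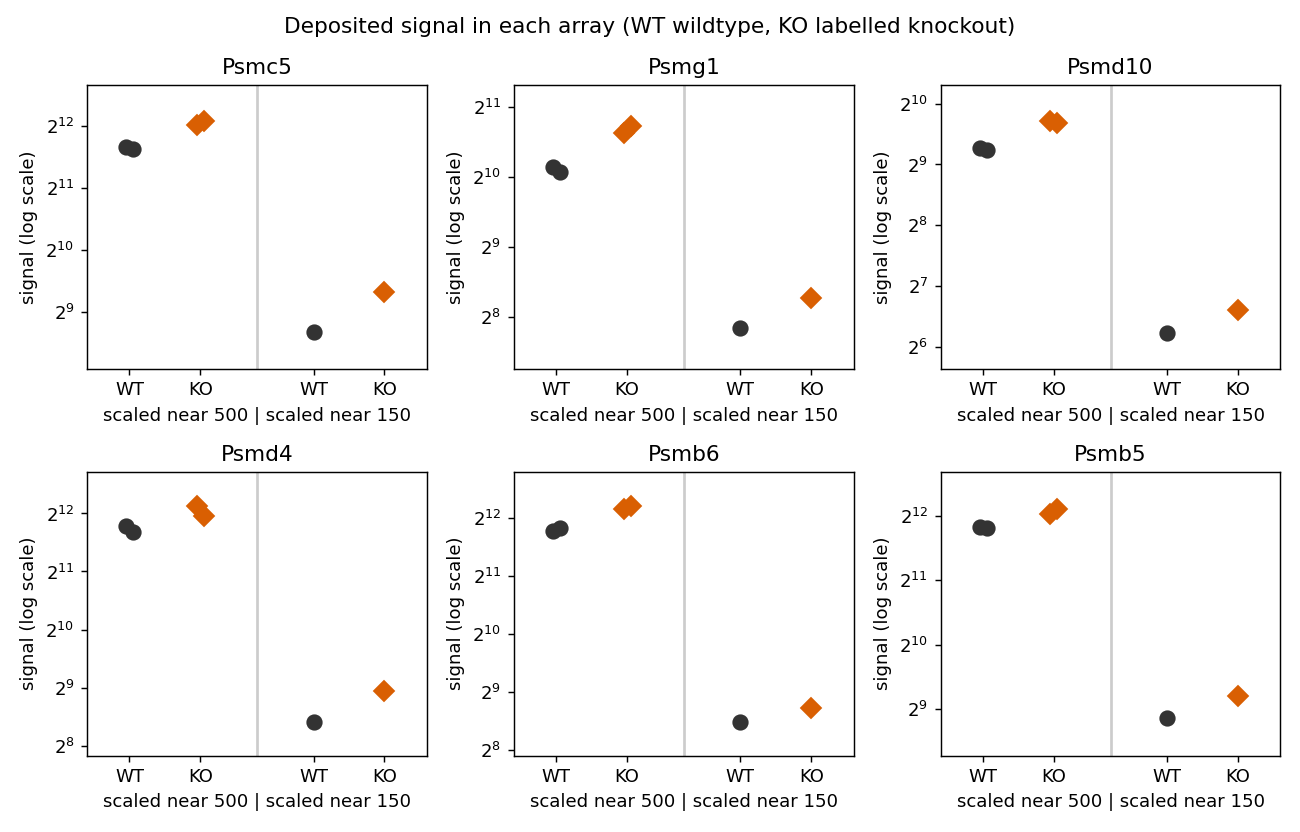
Deposited signal (log axis) of 6 proteasome genes in every array, with wildtype (WT, circles) and labelled knockout (KO, diamonds) at the left for arrays scaled near 500 (2 per group) and at the right for those scaled near 150 (1 per group). Every diamond lies above the circles of its set. The log2 differences run from 0.25 (Psmb5) to 0.58 (Psmg1) near 500 and from 0.23 (Psmb6) to 0.65 (Psmc5) near 150. The genes shown include Psmc5 and Psmg1, which passed the test. All 6 have an order found in 25 of the 45 tested proteasome genes and in 19.8% of all genes. They therefore do not show the range of the 45.

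The starting regions of both called genes are shown with those of Psmb6 and Psmd4, whose adjusted p came next, and of Psmc6, whose log2 fold change was near 0. RefSeq's promoter windows on GRCm38.p6 run from 250 bases before to 50 after a gene's start, and 41 of the 49 genes matched the table by symbol, with 44 windows. Capitals mark matches, on either strand, to 6 short motifs: the antioxidant response element core TGACNNNGC, bound by Nfe2l1 and Nfe2l2, the CCAAT box of NF-Y, the ERR response element TNAAGGTCA, the interferon response element core GAAANNGAA, the ETS site CCGGAAG and the nuclear respiratory factor site GCGCNNGCG. Psmc5 lies at chr11:106255935-106256234 (forward strand), Psmg1 at chr16:95990911-95991210 (reverse), Psmb6 at chr11:70525107-70525406 (forward), Psmd4 at chr3:95042565-95042864 (reverse) and Psmc6 at chr14:45329574-45329873 (forward). Each is written 5′ to 3′ on the gene's strand.
Psmc5: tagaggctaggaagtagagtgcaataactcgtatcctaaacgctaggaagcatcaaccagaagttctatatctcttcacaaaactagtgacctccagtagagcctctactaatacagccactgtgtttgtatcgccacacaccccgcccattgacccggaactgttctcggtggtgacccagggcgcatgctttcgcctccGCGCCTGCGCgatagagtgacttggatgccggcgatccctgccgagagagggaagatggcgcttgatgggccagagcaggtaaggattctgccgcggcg
Psmg1: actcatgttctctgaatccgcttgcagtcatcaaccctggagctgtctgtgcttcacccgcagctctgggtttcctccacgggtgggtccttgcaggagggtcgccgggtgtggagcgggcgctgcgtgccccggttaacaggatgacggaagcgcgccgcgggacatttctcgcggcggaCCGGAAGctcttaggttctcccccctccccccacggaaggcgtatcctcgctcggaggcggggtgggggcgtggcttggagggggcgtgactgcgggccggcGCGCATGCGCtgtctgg
Psmb6: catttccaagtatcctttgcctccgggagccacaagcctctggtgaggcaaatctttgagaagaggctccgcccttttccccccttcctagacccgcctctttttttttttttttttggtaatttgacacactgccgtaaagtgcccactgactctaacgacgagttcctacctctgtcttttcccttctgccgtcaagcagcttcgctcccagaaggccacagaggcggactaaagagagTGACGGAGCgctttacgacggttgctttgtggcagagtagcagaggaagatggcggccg
Psmd4: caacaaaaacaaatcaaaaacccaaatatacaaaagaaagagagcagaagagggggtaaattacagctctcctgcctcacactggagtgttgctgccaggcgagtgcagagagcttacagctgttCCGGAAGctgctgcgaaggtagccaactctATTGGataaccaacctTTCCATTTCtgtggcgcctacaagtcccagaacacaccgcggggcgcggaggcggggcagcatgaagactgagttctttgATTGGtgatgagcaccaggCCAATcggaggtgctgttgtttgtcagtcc
Psmc6: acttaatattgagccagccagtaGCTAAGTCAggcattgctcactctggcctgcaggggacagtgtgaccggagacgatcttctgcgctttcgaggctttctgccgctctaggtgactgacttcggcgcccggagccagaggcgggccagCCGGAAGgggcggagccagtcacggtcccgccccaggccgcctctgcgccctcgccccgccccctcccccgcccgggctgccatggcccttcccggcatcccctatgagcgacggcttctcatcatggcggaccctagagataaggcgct

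In these windows Psmc5 held the nuclear respiratory factor letters, on both strands in overlapping matches that begin 49 and 48 bases before the start. Psmg1 held these letters in overlapping matches that begin at bases 34 and 35 from its start. It also held an ETS site that begins 69 bases before the start. Psmb6 held the antioxidant response core from 9 bases before its start. Psmc6, which did not differ between the groups beyond its error, held it on the reverse strand from 227 bases before, with an ETS site from 100 bases before. Psmd4 held 3 CCAAT boxes, an ETS site and an interferon core. Apart from the overlapping pairs in Psmc5 and Psmg1, no match in these 5 windows overlaps another.

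Over the 44 proteasome windows, the antioxidant core was in 6 (13.6%, against 12.4% of 32851 windows of all genes), the CCAAT box in 16 (36.4% against 37.4%), and the ERR element in 1 (2.27% against 1.28%). The window with the ERR element belongs to Psmc3ip, which is no subunit. The interferon core was in 7 (15.9% against 8.56%), the nuclear respiratory factor letters in 9 (20.5% against 12.1%) and the ETS site in 17 (38.6% against 8.86%). These are matches of letters in short windows and show no binding, and windows without a match say nothing of a factor acting elsewhere.

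In the α ring, which gates the core, all 7 tested genes had log2 fold changes above 0 and none passed, with a range from 0.05 (Psma3) to 0.31 (Psma2) and a median of 0.24. In the arrays scaled near 500 each of the 7 was higher in both labelled knockout arrays than in both wildtype arrays (an order found in 32.2% of all genes; median 0.28), whereas near 150 the median was 0.03 and Psma3 and Psma5 were lower. Psma2 read 4483, 4025 and 540.4 in wildtype against 5407, 4879 and 699 in labelled knockout replicates 1, 2 and 3, or 0.31 ± 0.082 on the log2 scale (adjusted p = 0.0868). Psma8, a testis counterpart of Psma7, was under the filter, at 5.38 to 31.4 in all 6 arrays, and was not tested.

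The standard β ring showed the narrowest range of log2 fold changes among the 4 classes with over 5 genes, 0.16 (Psmb2) to 0.33 (Psmb6), with a median of 0.26 (0.27 near 500 and 0.23 near 150). All 7 genes were above 0 (53.1% of all genes), 6 of them without overlap in both sets of arrays (19.8% of all genes), and none passed. Psmb6 encodes the subunit with caspase-like activity. It read 3502, 3637 and 357 in wildtype against 4563, 4729.7 and 419 in labelled knockout replicates 1, 2 and 3 (0.33 ± 0.077, adjusted p = 0.0600). Psmb1, a subunit without a peptidase site, read 2869.8, 2779.5 and 298 in wildtype against 3372, 3436 and 390.0 in labelled knockout (0.31 ± 0.078, adjusted p = 0.0738).

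The other standard catalytic subunits lay close to these. Psmb5, with the chymotrypsin-like site, read 3651, 3613 and 465 in wildtype against 4211, 4411 and 588 in labelled knockout (0.28 ± 0.074, adjusted p = 0.0858; 95% interval 0.11 to 0.44). Psmb7, with the trypsin-like site, read 6363, 6192 and 904 in wildtype against 6952, 7588 and 1158 in labelled knockout (0.26 ± 0.075, adjusted p = 0.105; 95% interval 0.09 to 0.43). Both were higher in every labelled knockout array than in the wildtype arrays of its set, without passing.

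Of the 4 exchangeable catalytic subunits, 1 lay at or above the filter. This was Psmb10, which takes the place of Psmb7 after interferon, at 408, 356 and 73.1 in wildtype against 407, 406 and 65.7 in labelled knockout replicates 1, 2 and 3, or 0.01 ± 0.15 on the log2 scale (adjusted p = 0.976; 95% interval -0.34 to 0.36). Its groups overlap, and its interval holds the changes of Psmb5 and Psmb7. Psmb8, the interferon-induced counterpart of Psmb5, read 103, 25.8 and 3.43 in wildtype against 24.9, 55.9 and 19.4 in labelled knockout. Psmb9, that of Psmb6, read 88.3, 82.1 and 16.7 in wildtype against 119, 68.6 and 15.8 in labelled knockout. Both have overlapping groups near 500. Psmb11, known from thymus epithelium, read 7.88, 5.26 and 8.05 in wildtype against 24.2, 13.3 and 7.44 in labelled knockout. These 3 were under the filter and were not tested.

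Among the 6 ATPases of the regulatory base, Psmc5 rose and the other 5 did not pass, with a median of 0.28 (0.28 near 500 and 0.18 near 150). Psmc3 read 3604, 3731 and 454 in wildtype against 4299, 4414 and 598 in labelled knockout replicates 1, 2 and 3 (0.30 ± 0.076, adjusted p = 0.0758). Psmc4 read 4796, 6446 and 478 in wildtype against 7574, 7633 and 510.3 in labelled knockout (0.33 ± 0.12, adjusted p = 0.163), with 0.45 near 500, 0.09 near 150 and a wide gap between its wildtype arrays near 500. Without wildtype replicate 1 the log2 fold change of Psmc4 was 0.18. A dimmer kept probe set of Psmc4 had 0.37 ± 0.083 (adjusted p = 0.0542), with 0.37 near 500 and 0.37 near 150. Psmc3 and Psmc4 were above wildtype in every array of each set, and so was Psmc2 (0.26 ± 0.075). Psmc1 had 0.11 ± 0.080, and Psmc6 had -0.02 ± 0.076 with overlapping groups near 500 (adjusted p = 0.900). The 6 ATPases form 1 ring in equal numbers, and their log2 fold changes ran from -0.02 to 0.48. The interval of Psmc5, 0.29 to 0.67, and that of Psmc6, -0.19 to 0.15, do not meet. That contrast was picked after the values were seen, and the difference between genes was not tested.

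Of the 3 other base genes none passed. Psmd4, a receptor for ubiquitin chains, read 3542, 3278 and 341 in wildtype against 4497, 3959.6 and 491 in labelled knockout replicates 1, 2 and 3 (0.38 ± 0.090, adjusted p = 0.0614). It was higher in each labelled knockout array than in the wildtype arrays of its set. A slightly dimmer probe set of Psmd4 was called higher (0.49 ± 0.091, adjusted p = 0.0306, or 0.0830 with a replicate block), and its dimmest kept one, at 14.7 to 154, had -1.02 ± 0.67. The scaffold genes Psmd1 and Psmd2 had 0.17 ± 0.073 and 0.04 ± 0.078.

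The lid had the lowest median of the 4 classes with over 5 genes: its 8 genes had 0.10 (0.17 near 500 and 0.03 near 150) and none passed. Psmd14, the enzyme that cuts the ubiquitin chain off a substrate, read 3944, 3914 and 813 in wildtype against 4518, 4336 and 785 in labelled knockout replicates 1, 2 and 3 (0.10 ± 0.079, adjusted p = 0.523), higher near 500 and lower near 150. Psmd7, its partner in the lid, read 1729.5, 1676 and 193 in wildtype against 1827, 1991 and 299 in labelled knockout (0.32 ± 0.11, adjusted p = 0.160). No lid gene passed the interaction of group and set; by set, Psmd7 had 0.16 near 500 and 0.63 near 150, Psmd8 -0.08 and 0.34, and Psmd6 0.32 and -0.18. The remaining lid genes were Psmd13 (0.26 ± 0.11), Psmd3 (0.11 ± 0.14), Psmd12 (0.06 ± 0.077) and Psmd11 (0.01 ± 0.069).

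Among the genes of alternative caps and the inhibitor, none of 4 passed. Psme1, which with Psme2 forms the interferon-induced cap, read 1507, 1573 and 142 in wildtype against 1691, 1694 and 169 in labelled knockout replicates 1, 2 and 3 (0.17 ± 0.091, adjusted p = 0.318), with no overlap within a set. Psme3, which forms the nuclear cap, had 0.28 ± 0.12 (adjusted p = 0.218). Psme4, a large single-chain cap, was the lowest of all 45, with -0.11 ± 0.13 and overlapping groups near 500. Psmf1, named for inhibiting the core, had 0.10 ± 0.11.

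The assembly chaperones had 7 tested genes, all above 0, with a median of 0.15 (0.16 near 500 and 0.13 near 150). After Psmg1, which rose, Psmd10 had the largest change among them. This chaperone, also called gankyrin, holds the ATPase Psmc4 before the base is complete. It read 619, 607 and 75.1 in wildtype against 843, 816 and 97.5 in labelled knockout replicates 1, 2 and 3 (0.42 ± 0.12, adjusted p = 0.0986), with no overlap in either set. The other base chaperones, Psmd5 and Psmd9, had 0.12 ± 0.092 and 0.05 ± 0.13.

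Psmg2, the partner of Psmg1, read 1325, 1258 and 217 in wildtype against 1438, 1450.1 and 236 in labelled knockout (0.15 ± 0.090, adjusted p = 0.392). Its other kept probe sets had 0.46 ± 0.12 (adjusted p = 0.0709) and, at lower signal, -0.21 ± 0.35 (adjusted p = 0.776). Psmg3 read 874, 799.5 and 111 in wildtype against 821, 1027 and 109 in labelled knockout (0.08 ± 0.13, adjusted p = 0.771). Its partner Psmg4 read 327, 262 and 62.8 in wildtype against 421, 298 and 69.2 in labelled knockout (0.23 ± 0.19, adjusted p = 0.545). Both have overlapping groups near 500. Psmc3ip and Psme3ip1, which are no subunits, had 0.01 ± 0.20 and 0.04 ± 0.086.

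The counts were also taken within each set of arrays. Near 500, 42 of the 45 genes were above 0 (53.0% of all genes), with a median of 0.21, and 31 had both labelled knockout arrays above both wildtype arrays (32.2% of all genes). Near 150, 32 were above 0 (52.5% of all genes), with a median of 0.13, and 30 were above 0 in both sets (31.0% of all genes). A limma fit of the 4 arrays near 500 alone called 17 of the 45 higher and none lower, against 7.48% of all genes called higher: Psma1, Psma5, Psma6, Psma7, Psmb1, Psmb4, Psmb5, Psmb6, Psmc2, Psmc3, Psmc4, Psmc5, Psmd4, Psmd6, Psmd10, Psmd13 and Psmg1. With a replicate block over all 6 arrays none of the 45 passed, against 0.495% of all genes called higher, and 17 had an unadjusted p under 0.05.

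Whether a difference depended on the set of arrays was tested by the interaction of group and set in limma. None of the 45 passed, 5 had an unadjusted p under 0.05, and over all genes 1.17% passed and 15.8% had an unadjusted p under 0.05. Psma5 came nearest, at 4671 and 4815 against 5965 and 6031 near 500 but 849.8 against 727 near 150 (0.34 and -0.23, adjusted p = 0.0621). Under the centring on medians Psma5, Psma6 and Psmd6 passed this test.

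**Figure D3:**
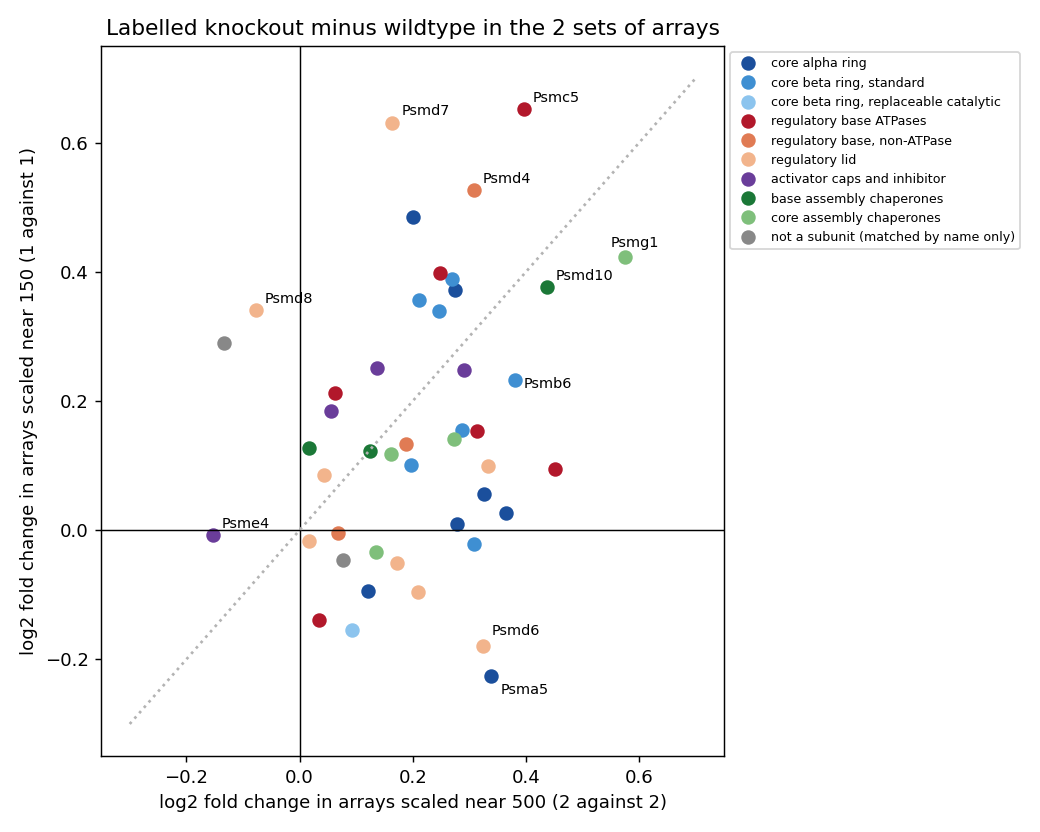
Log2 fold change (labelled knockout minus wildtype) of the 45 tested genes in the arrays scaled near 500 (x axis, 2 against 2) and near 150 (y axis, 1 against 1), coloured by role, with the dotted line where both are equal. To the right of and above 0 lie 30 genes, among them Psmc5 and Psmg1 far from 0, while Psma5 (0.34 and -0.23) lies below the x axis.

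**Figure D4:**
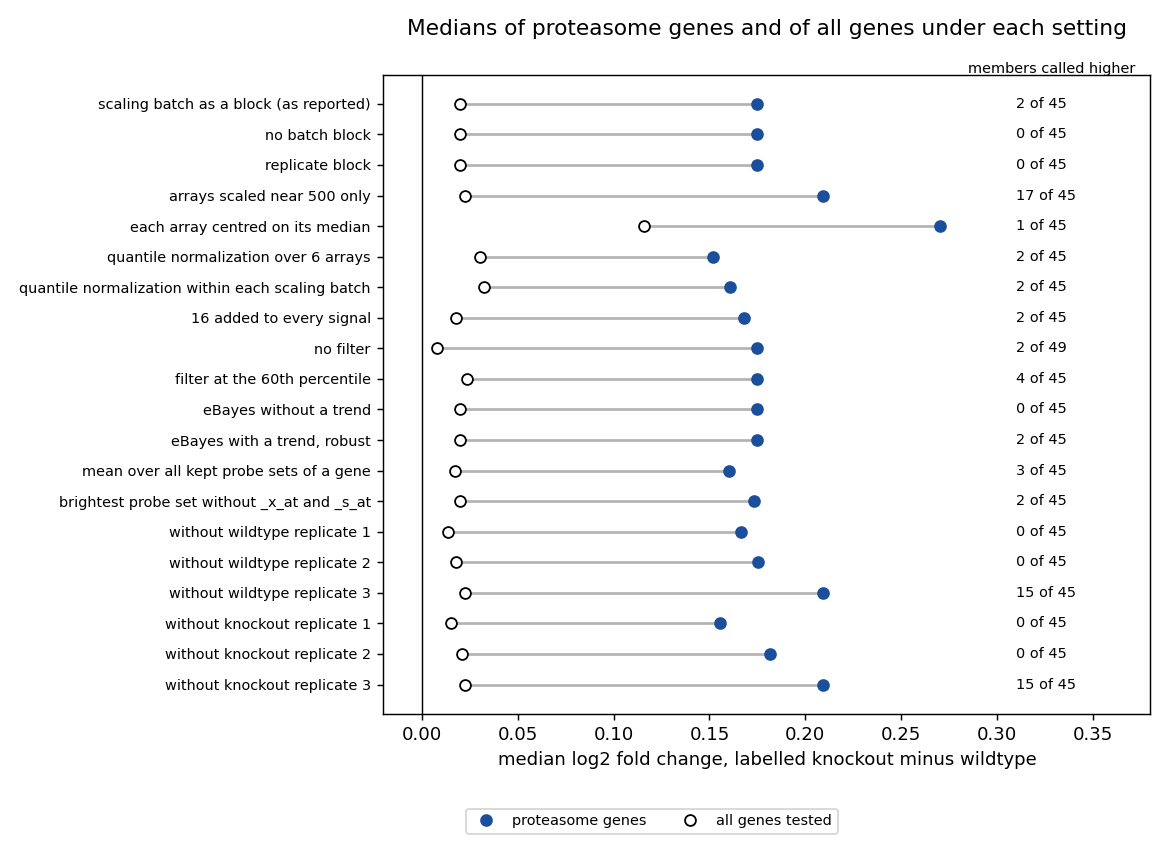
Median log2 fold change (x axis) of the tested proteasome genes (filled) and of all genes (open) under each processing setting (rows), with the number of proteasome genes called higher at the right. The proteasome median lies between 0.15 and 0.27 in these rows, which leave out the arrays scaled near 150 alone (0.13). Settings that change only the block or the variance model cannot move it, while the number called runs from 0 to 17.

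Many of these genes have further probe sets. The 49 genes had 103 in all, of which 83 were at or above the filter. Of 23 genes with several such probe sets, 13 had 1 direction in all and 10 had both signs. Of the 38 probe sets that were not the brightest, 25 were above 0 and 1, that of Psmd4, passed. Psmc5 and Psmg1 have 1 probe set each, so no other probe set bears on them. Psmd11 is a case with both signs at high signal, with 0.01 for its brightest probe set. Its others at high signal had -0.31 ± 0.093 (adjusted p = 0.111), -0.25 ± 0.11 (adjusted p = 0.222) and 0.26 ± 0.12 (adjusted p = 0.280). When the kept probe sets of each gene were averaged, Psmb6, Psmc5 and Psmg1 were called and 38 of 45 genes were above 0.

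Other genes of the ubiquitin and proteasome pathway lay nearer to the median of all genes. These came from the lists of other subunits, regulators, ubiquitin enzymes, shuttle factors, the Vcp complex and antigen processing. Of the 49 tested, 1 was higher and none lower, against 1.28% and 1.48% of all genes. Above 0 lay 29 of the 49 (53.1% of all genes), with a median of 0.04 (0.04 in each set of arrays). The gene that rose was Ubxn1, a ubiquitin-binding cofactor of the unfolding ATPase Vcp. It read 1321, 1293 and 141 in wildtype against 1802, 1974 and 258 in labelled knockout replicates 1, 2 and 3 (0.64 ± 0.11, adjusted p = 0.0193), with no overlap within a set. The replicate block ended that call (adjusted p = 0.0604), and so did the fit without a variance trend (0.225). Without any 1 of the 4 arrays scaled near 500 its adjusted p was 0.0622 to 0.130. Vcp itself had 0.03.

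Nfe2l1, the transcription factor known to raise proteasome genes when the proteasome is impaired, read 1092, 1183 and 829.6 in wildtype against 1052, 872 and 775 in labelled knockout (-0.20 ± 0.10, adjusted p = 0.313). Every labelled knockout array lay below the wildtype arrays of its set, without passing. Pomp, which matures the β ring, read 4509.8, 4924 and 424 in wildtype against 5422, 4897 and 484 in labelled knockout (0.15 ± 0.080, adjusted p = 0.329). By list, the medians were 0.04 for 6 other subunit and assembly genes, -0.05 for 8 regulators, 0.08 for 6 deubiquitinases and ligases, 0.01 for 7 shuttle factors, 0.05 for 8 Vcp complex genes and 0.05 for 13 interferon and antigen processing genes. Of the ubiquitin and activating enzyme list only Uba6 was tested (0.05), and 10 entries of these lists were not analysed here because no probe set carried the symbol alone.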

How the data were processed

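Total RNA of retina was hybridised to Affymetrix 3′ arrays after oligo dT amplification, per the labels' protocols. For every probe set the authors deposited 1 linear intensity on each array, and the submitters' processing notes name GCOS 1.4 and MAS5, without order or settings. Of 45101 probe sets, 64 controls were dropped. Log2 signals were not normalized further. The 27022 probe sets whose mean log2 signal reached the 40th percentile entered a two-sided limma 3.58.1 fit (lmFit, then eBayes with a trend; R 4.3.3). The scaling batch was a block, defined by array means trimmed by 2% at each end. Simulated arrays with known changes served to test the fit. Of 45037 probe sets, 34945 had 1 symbol, 932 several and 9160 none in the platform annotation.

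Replicate numbers were checked for pairing: deviations from group means correlated at 0.57, 0.67 and 0.84 for replicates 1, 2 and 3. All were over 0.1, by which rule they count as paired. The sets of arrays follow the replicate numbers in both groups, so these correlations cannot tell pairing from the difference between sets. Within the arrays scaled near 500, replicate 1 gave 0.015. The replicate block is an alternative, with other scalings, filters, probe set choices, an added constant of 16 and arrays left out.

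Genes named with array values are those that passed, the 10 with the largest change, the catalytic, Psmd14, Psme1 and Psmg genes, and Nfe2l1, Pomp and passing pathway genes; Psma5 was added, and Psme3ip1 set apart as no subunit, after the values were seen. Members and lists were chosen with earlier results of these data known. Array number, 3 per group, limits the precision, and no read depth applies.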

Additional observations from a re-analysis of the deposited data

How the results depend on the processing

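The median log2 fold change of the proteasome genes, 0.17, was 0.13 in the arrays scaled near 150 alone (1 against 1, with no test). Under the other settings that can move it (scaling, an added constant, probe set choice and arrays left out) it was 0.15 to 0.27. Other blocks or variance models leave it fixed. No proteasome gene was called lower in any setting run. The count called higher, 2 of 45 among 609 probe sets called in all, depended on the setting. In limma without the batch block it was 0 of 0 (0 members at an unadjusted p under 0.05), with a replicate block 0 of 200 (17 members), and without a variance trend 0 of 19 (11 members). It was 17 of 3687 in the arrays scaled near 500 alone, 4 of 955 with a filter at the 60th percentile (Psmb6 and Psmd4 besides Psmc5 and Psmg1), and 1 (Psmc5) of 284 with arrays centred on their medians, where the proteasome median was 0.27. All probe sets called came to 405 without a filter. Averaging each gene's probe sets called 401 genes of 12536. Leaving out 1 array gave 0 to 15 members among 77 to 3710, with 0 where an array scaled near 500 was left out. The block on replicate numbers leaves 2 residual degrees of freedom.

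The interaction with the array set was called for 3 members after centring (Psma5, Psma6 and Psmd6), and for 1 with quantile normalization over 6 arrays (Psmd8), with the 60th percentile filter (Psma5) and with robust eBayes (Psma5). Some directions turned: Psmb10 had -0.014 with quantile normalization over 6 arrays, -0.15 near 150 alone and -0.069 to 0.093 with an array left out, Psmg3 -0.034 near 150 alone and -0.029 to 0.16 with an array left out, Psmd14 -0.051 near 150 alone, and Psmd4 -0.052 after averaging its probe sets, of which the dimmest had -1.02. The other causes were not tested. No detection call is given, so signals under the array medians of 57.3 to 135 limit what can be said of Psma8, Psmb8, Psmb9 and Psmb11. The exception was Psmb9 in labelled knockout replicate 1, at 119 against an array median of 118.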
